A study of Mus musculus with 15 samples.

Results

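Clta encodes clathrin light chain a, and its RNA carries a pair of short neighbouring cassette exons of 54 and 36 nt. The authors list both with different inclusion in wild-type and Mbnl3 mutant mouse forelimbs. Clta was picked for this listed difference, which for the 36-nt exon depends on the junctions counted. It contributes 2 of the 98 cassette exon events, in 1 of 84 genes, that the authors list as changed, and the rows were found by gene symbol (gene ID 12757). The RNA-seq compared female forelimbs at day 15 of gestation, taken from 3 animals of wild-type (WT) genotype and 3 homozygous for the Mbnl3 ΔE2 allele. The labels also call these mutants Mbnl3 KO, and the series title speaks of an isoform knockout, so the labels do not say that every form of the protein is lost. Mbnl3 HITS-CLIP, in which RNA crosslinked to the protein by ultraviolet light is precipitated and sequenced as short tags, was done on BL6 forelimbs of both genotypes at day 15, with 3 libraries each. Every forelimb CLIP library pooled 4 forelimbs of 2 embryos. A further 3 CLIP libraries came from WT C2C12 cells, a mouse myoblast line grown in 20% serum, and were combined by the authors into 1 set.

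Clathrin forms the lattice that coats vesicles budding from the plasma membrane, the Golgi and endosomes. Its triskelion is built of heavy chains, and the light chains lie along the heavy chain legs, where they tune coat assembly and connect the coat to actin. Light chain a is known for short inserts that neurons add by alternative splicing, so that the same gene gives light chains that differ between tissues. Muscleblind proteins, of which Mbnl3 is one, bind RNA and regulate the inclusion of such cassette exons.

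All Clta positions are of the mm9 build and lie on the plus strand of chromosome 4. The event of the 54-nt exon spans chr4:44038321-44044306, and the event of the 36-nt exon spans chr4:44043087-44045725. The first event runs from an upstream exon of 113 nt, across an intron of 4653 nt, to the 54-nt exon at chr4:44043087-44043140. An intron of 1130 nt follows, and then the 36-nt exon at chr4:44044271-44044306. The second event goes on across an intron of 964 nt to a downstream exon of 455 nt, at chr4:44045271-44045725. Exons were placed from the ends of the spans. The numbers in the authors' event names make the middle intron 1131 nt, so the inner boundaries are known to within 1 nt. Both cassette lengths are multiples of 3, equal to 18 and 12 codons, as were 59 of the 98 listed exons. Among those 98 exons, which ran from 16 to 759 nt with a median of 80.5 nt, 26 were at most 54 nt long and 11 at most 36 nt.

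In the exon table each junction has 1 estimated tag total per genotype, so no value per animal and no spread between animals can be given, and the intervals below cover counting error only. The header of that table names Mbnl2 for the mutant, while every label of the series names Mbnl3, so its mutant values are called the knockout column here. Event tags, here the mean of the 2 inclusion junctions plus the skipping junction, were higher in the knockout column in 93 of the 98 events. The median ratio of knockout to WT over all 98 was 1.66, and these events were selected by the authors for changed inclusion. CLIP tags numbered from 35413 to 124309 per WT library, from 40531 to 67279 per ΔE2 library and 550124 in C2C12 after repeats were removed. ΔE2 replicates 2 and 3 had 33916 molecules in common by position and barcode, 83.7% and 57.4% of each library, and were counted as 1 library of 65730 tags. Between the other pairs of forelimb libraries the shared part ran from 1.45% to 32.4% of a library. Across the genotypes, WT replicate 3 and ΔE2 replicate 1 shared 20258 molecules, or 30.1% of the latter. RNA levels of Mbnl3 and of tissue markers in these libraries were not analysed here.

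The 54-nt exon was close to absent from WT forelimb. In the knockout column it was the main form among transcripts that hold a listed cassette exon. The junction from the upstream exon into the 54-nt exon had 0.899 estimated tags in WT (95% exact Poisson interval of the rounded total 0.0253 to 5.57) and 220.4 in the knockout column (192 to 251). This is 220 tags against 1 once rounded, a ratio whose exact 95% interval runs from 39.1 to 8729. The junction that passes over the 54-nt exon, from the upstream exon to the 36-nt exon, had 66.3 tags in WT (51.0 to 84.0) and 14.1 in the knockout column (7.65 to 23.5). The ratio of knockout to WT was 0.212 there (exact 95% interval 0.110 to 0.382), or 0.127 after division by the median ratio of 1.66 over all events. The junctions that use and avoid the 54-nt exon thus differed in opposite directions. Their intervals did not overlap between the genotypes, but Clta was picked for this difference. The intervals also hold counting error only, so the lack of overlap is not a test.

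Junctions that leave the 54-nt exon showed the same contrast. To the 36-nt exon there were 0 tags in WT (95% exact Poisson interval 0 to 3.69) and 32.1 in the knockout column (21.9 to 45.2). To the downstream exon there were 0.899 tags in WT (0.0253 to 5.57) and 108.2 in the knockout column (88.6 to 130.4). The WT values of the junctions into the 54-nt exon and out of it to the downstream exon are equal to all printed digits and under 1 tag, so nothing in WT measures how the exon is used once included. In the knockout column 220.4 tags entered the 54-nt exon and 140.4 left it by the listed junctions, which is 1.57-fold as many in as out.

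**Figure D1:**
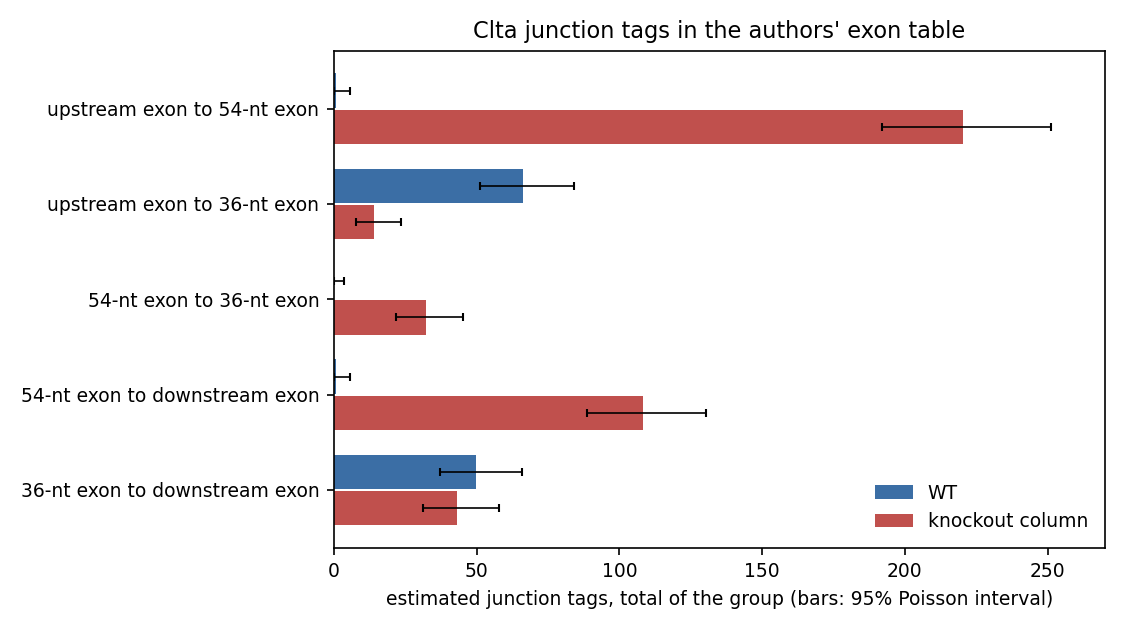
Estimated tags (horizontal axis, linear, total of each genotype) of the 5 Clta junctions of the authors' exon table, blue for WT and red for the knockout column. Error bars are 95% exact Poisson intervals of the rounded totals. The 3 junctions that touch the 54-nt exon have at most 0.899 tags in WT, and the junction from the 36-nt exon to the downstream exon is the one with overlapping intervals.

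The 36-nt exon was present in both genotypes, with tag totals closer together than those of the 54-nt exon. Its exit junction, to the downstream exon, had 49.8 tags in WT (95% exact Poisson interval 37.1 to 65.9) and 43.0 in the knockout column (31.1 to 57.9). Those intervals overlap, and the ratio of 0.863 has an exact 95% interval of 0.559 to 1.32. Divided by the median of 1.66, it becomes 0.519 (0.336 to 0.793), so whether the 36-nt exon was used less depends on a scaling taken from selected events. Tags entering the 36-nt exon from both sides totalled 66.3 in WT and 46.2 in the knockout column (33.7 to 61.4). The ratio of 0.697 (exact 95% interval 0.468 to 1.03) became 0.419 (0.281 to 0.620) after that division.

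The exon joined in front of the 36-nt exon differed between the genotypes. Of the tags that entered it, 100% came from the upstream exon in WT (66 of 66 rounded tags, 95% exact binomial interval 94.6% to 100%). In the knockout column 30.4% came from the upstream exon (14 of 46, 17.7% to 45.8%) and 69.6% from the 54-nt exon (54.2% to 82.3%). Of the tags that left the 54-nt exon in the knockout column, 22.9% went to the 36-nt exon (32 of 140, 16.2% to 30.7%) and the others skipped to the downstream exon. The combinations seen in the knockout column were therefore the 54-nt exon without the 36-nt exon (108.2 tags), both together (32.1) and the 36-nt exon alone (14.1). In WT the 36-nt exon alone (66.3) made up nearly all tags of the cassette pair. These pairings come from single junctions, and the table gives no count over the whole cassette pair.

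Neither event lists the junction from the upstream exon straight to the downstream exon, which marks the light chain RNA without either insert. The percentages below thus cover only transcripts that hold at least 1 of the cassette exons, not all Clta transcripts. They average 2 inclusion junctions, so they are not exact shares of those transcripts either. The share of Clta RNA with neither insert was not analysed here. Tags joining the upstream exon to either cassette exon totalled 67.2 in WT and 234.4 in the knockout column. Their ratio of 3.49 (exact 95% interval 2.65 to 4.65) remained at 2.10 (1.59 to 2.80) after division by 1.66.

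As percentages, inclusion of the 54-nt exon was 0.673% in WT (95% exact binomial interval of rounded tags 0 to 5.44%) and 89.98% in the knockout column (83.8% to 94.4%). Inclusion here is the mean of the 2 inclusion junctions over that mean plus the skipping junction. The intervals treat the rounded mean as a count, so they are approximate. For the 36-nt exon in WT that mean is of junctions with 0 and 49.8 tags. For the 36-nt exon it was 96.5% in WT (80.4% to 99.9%) and 25.8% in the knockout column (19.1% to 33.9%). The changes were 89.3 and -70.7 percentage points. Only these 2 of the 98 events, 2.04%, changed by 50 points or more. The next was Adamts6, a secreted metalloprotease, with 43.4, and the median size over all events was 15.5 points. Since Clta was chosen for these values, they are given as a description without a test. The directions split among the 98 events as 54.1% with higher and 45.9% with lower inclusion in the knockout column.

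The wide change of the 36-nt exon rests on its skipping junction. That junction runs from the 54-nt exon to the downstream exon, so it can be counted only in transcripts that already hold the 54-nt exon, of which WT had 0.899 tags. The upstream inclusion junction likewise needs the 54-nt exon. With that junction alone, inclusion of the 36-nt exon was 0% in WT and 22.9% in the knockout column. This is a change of 22.9 points in the opposite direction. The WT value was 0 of 1 rounded tag (exact binomial interval 0 to 97.5%), so the sign of this change is undetermined. With the downstream inclusion junction alone, inclusion of the 36-nt exon went from 98.2% to 28.4%. The 54-nt exon kept its direction with either junction, at 1.34% to 94.0% with the upstream one and 0% to 69.6% with the downstream one. The WT total behind the 36-nt event was 25.8 tags, the 6th lowest of the 98 events, and 145.8 tags stood behind it in the knockout column, 5.65-fold more and the highest ratio in the table. For the 54-nt event the event tags were 66.7 and 140.3, against medians over all events of 102 in WT and 170 in the knockout column.

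For the 54-nt exon the inclusion isoform total exceeds the sum of its junctions by 1.00 tag in both columns, and for the 36-nt exon it equals that sum. The inclusion junctions that the 54-nt event counts differed 6.86-fold from each other in the knockout column, and the exit to the downstream exon (108.2 tags) is not among them.

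Other listed exons came nearest to the Clta pattern only at a distance. Distance here is measured in percentage points across the WT and knockout inclusion values, over the 98 events and 2 group totals. Nearest to the 54-nt exon was an 18-nt exon of Trim26, a tripartite motif protein, at 26.9% in WT and 66.2% in the knockout column, 35.4 points away. Adamts6 (10.3% and 53.7%) and Slc9a5, a sodium-proton exchanger (18.2% and 56.3%), followed at 37.5 and 38.0 points. The 36-nt exon was 30.9 points from a 75-nt exon of Zfp322a, a zinc finger protein, which had 84.0% and 54.02%. Cux1, a homeobox transcription factor, stood 33.5 points away (83.3% and 56.5%), and Cuedc2, a ubiquitin-binding domain protein, 34.0 points (64.3% and 36.4%).

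**Figure D2:**
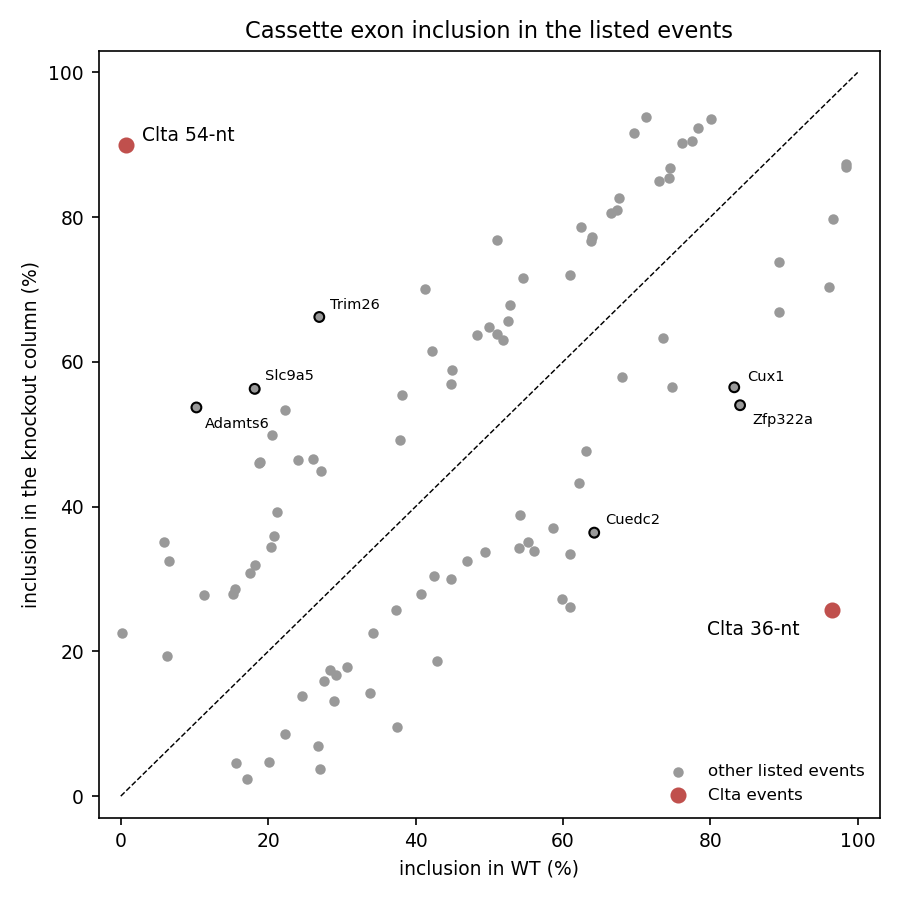
Inclusion in the knockout column against inclusion in WT (both in %, linear axes) for the 98 listed events, 1 point each, with Clta in red, the nearest events circled and named, and a dashed line of equal inclusion. The 54-nt exon lies at 0.673% and 89.98% and the 36-nt exon at 96.5% and 25.8%, each at least 30.9 points from its nearest neighbour.

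Few genes had listed events that share a splice site and changed in opposite directions. Of the 11 genes with more than 1 listed event, 3 had changes of opposite sign, and 2 of these, Clta and Rbm9, had events that share a splice site. Rbm9, now named Rbfox2, is itself a splicing regulator. Its 43-nt exon had 54.01% inclusion in WT and 34.3% in the knockout column, and its 40-nt exon 63.8% and 76.7%. As in Clta, a junction belongs to both Rbm9 events. It had 73.4 tags in WT and 70.8 in the knockout column, counted as inclusion for the 43-nt exon and as skipping for the 40-nt exon. The changes in Rbm9 were -19.7 and 12.96 points, against -70.7 and 89.3 in Clta.

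The clathrin pathway had 1 other gene in the table. A list of 58 genes for clathrin chains, adaptors, accessory proteins and vesicle scission had 2 members with listed events, Clta, which was chosen for its change, and Epn2, 1 of the 57 others. Over all genes, 84 had a listed event, or 0.384% of the 21900 protein-coding genes of the RefSeq table (GRCm38.p6). The number of genes that the authors tested is unknown here, so neither this list's count nor those of the cell types below can be called high or low. Epn2, or epsin 2, binds clathrin and the adaptor AP-2 and helps to bend the membrane. Its listed exon is also 36 nt long and had 33.8% inclusion in WT and 14.3% in the knockout column, a change of -19.5 points. The other 56 genes had no listed event, which does not show that their exons were unchanged. The smallest listed change was 10.1 points, so smaller changes can be missing. Larger changes that missed another criterion of the authors can be missing too. Cltb and Cltc, the other light chain and the heavy chain, are among these 56 genes. Neuron and nerve genes, which are of interest for light chain inserts, had 0 of 7 members listed, skeletal muscle 0 of 8 and skin 0 of 5. Cartilage had 2 of 5, Acan and Col2a1. These counts concern splicing and give no RNA level of any cell type, so the part of cell composition in the Clta change was not tested.

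CLIP tags on the Clta spans, counted on the plus strand with an overlap of at least 1 nt, were sparse in forelimb. WT replicates 1, 2 and 3 had 1, 1 and 6 tags, or 28.2, 13.5 and 48.3 per 1000000 tags of the library (CPM). The ΔE2 replicates had 3, 0 and 0 tags, or 44.6 CPM for replicate 1 and 0 for the library made of replicates 2 and 3, where 0 tags allow up to 45.6 CPM. The genotypes overlapped, since ΔE2 replicate 1 lay above WT replicates 1 and 2. The WT mean was 30.0 ± 17.5 CPM (SD, n = 3). The ΔE2 mean was 22.3 ± 31.5 CPM (SD, n = 2). The difference of -7.70 CPM was smaller than the spread between libraries (two-sided exact permutation p = 0.7, where 0.1 is the smallest p that 10 splits allow). It was 1.43 CPM without WT replicate 3 and -30.0 without ΔE2 replicate 1, so single libraries set its sign and size. The minus strand of the same span had 0 tags in every forelimb library and in C2C12. A lower tag count can reflect less RNA or less binding, and fewer cells with the RNA or less of it in each cannot be told apart in these bulk samples.

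**Figure D3:**
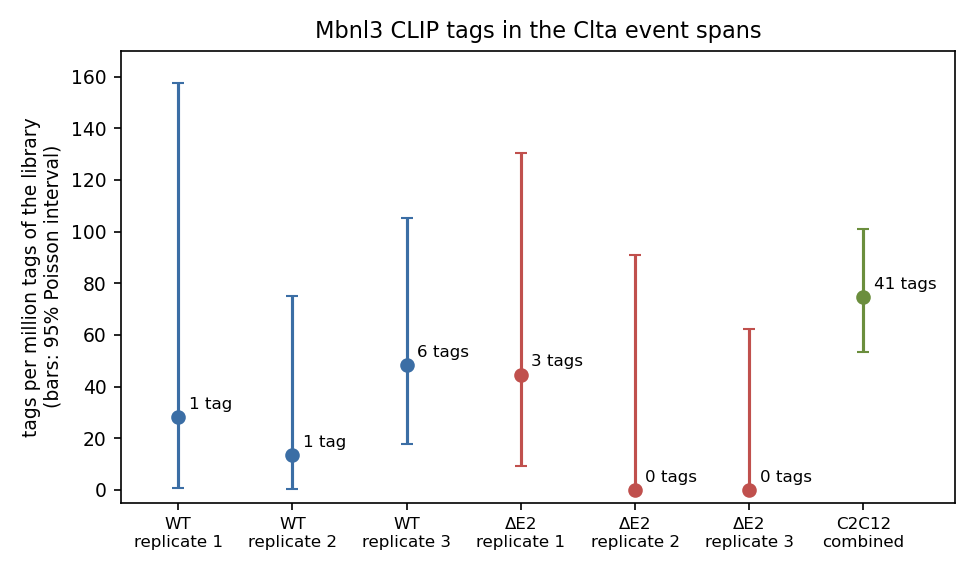
Tags on the Clta event spans per 1000000 tags of each library (vertical axis, linear), for 3 WT (blue) and 3 ΔE2 (red) forelimb libraries as labelled and the combined C2C12 set (green). Points carry their tag numbers and error bars are 95% exact Poisson intervals, which overlap among all 6 forelimb libraries.

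The 11 forelimb tags came from only 7 distinct molecules, by position and barcode, because 2 of them were found in more than 1 library. The molecule at chr4:44043031-44043065 was in 4 libraries, with 1 read in WT replicate 1, 559 in WT replicate 2, 12 in WT replicate 3 and 1 in ΔE2 replicate 1. It was the sole Clta molecule of WT replicates 1 and 2. The molecule at chr4:44043447-44043481 had 1 read in WT replicate 3 and 4 in ΔE2 replicate 1. When a molecule found in several libraries was kept in the one with most reads, an alternative chosen after seeing the data, the WT replicates had 0, 1 and 4 tags and the ΔE2 libraries 2 and 0. The difference was then 1.71 CPM (two-sided exact permutation p = 0.8). By molecule, 4 were seen in WT alone, 1 in ΔE2 alone and 2 in both.

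Of the 7 forelimb molecules, 4 lay at the start of the 54-nt exon, a stretch singled out after the tags were seen. Counting the first base of the exon as 0, they covered bases -56 to -22, -35 to -10, -14 to 12 and -13 to 8. The first 2 were in the intron, just before the exon, and the others crossed the splice site at which the exon begins. All 4 were in WT replicate 3, where 3 of them had 1 read each and were in no other library. In ΔE2 the stretch had 1 molecule, the shared one with 1 read there. Over the 60 nt before the exon and its first base, distinct molecules came to 20.6 CPM in WT (4 of 194545, exact 95% Poisson interval 5.60 to 52.6) and 7.75 CPM in ΔE2 (1 of 129054, 0.196 to 43.2). The intervals overlap, but they pool the libraries of a genotype and hold counting error only, so the overlap is not a test. So few molecules show neither a difference between the genotypes nor the lack of one. The same stretch had 0 tags in C2C12, for which the same interval reaches 6.71 CPM and overlaps that of WT (the 3 tags that a total of 0 allows come to 5.45 CPM).

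**Figure D4:**
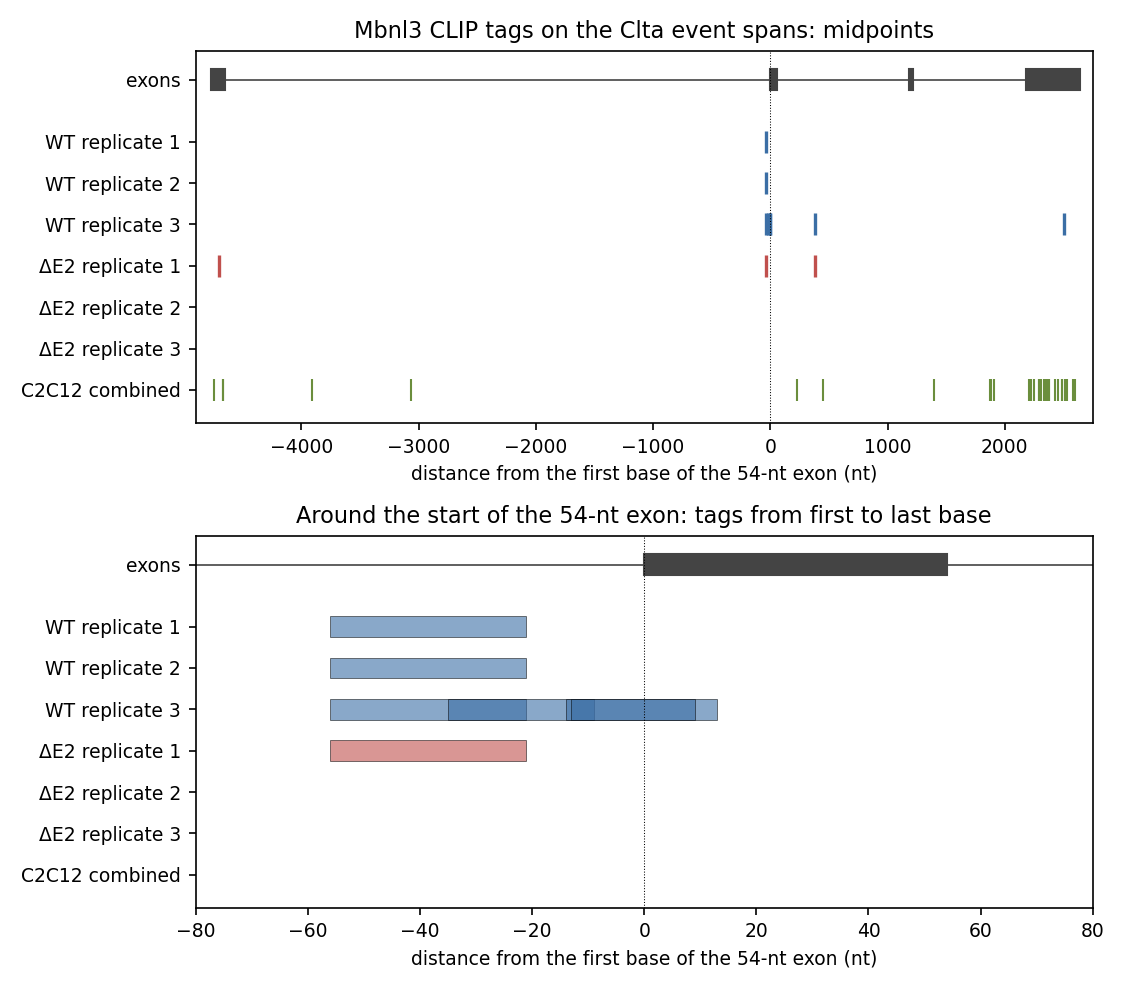
CLIP tags along the Clta event spans, by distance in nt from the first base of the 54-nt exon (linear axis), for each forelimb library and the combined C2C12 set, with exons as black boxes. The upper panel marks tag midpoints over the whole 7405 nt and the lower panel draws tags from first to last base near the 54-nt exon, where 4 molecules of WT replicate 3 lie, 1 of them also in WT replicates 1 and 2 and ΔE2 replicate 1.

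The remaining forelimb molecules were scattered. The one with 23 reads in ΔE2 replicate 1 lay in the upstream exon, at chr4:44038368-44038402. The one shared by WT replicate 3 and ΔE2 replicate 1 lay in the intron between the cassette exons, from 360 to 394 nt after the start of the 54-nt exon. The last, with 1 read in WT replicate 3, lay in the downstream exon at chr4:44045576-44045610. No forelimb molecule had its midpoint inside the 54-nt or the 36-nt exon.

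In C2C12 the same spans held 41 distinct tags from 52 lines, or 74.5 CPM (95% exact Poisson interval 53.5 to 101), against 30.0 ± 17.5 CPM in WT forelimb (SD, n = 3). The tags were placed differently. The downstream exon held 30 of the 41, or 73.2%, which is 65.9 per kb (44.5 to 94.1). The upstream exon held 3, or 26.5 per kb (5.47 to 77.6), and 2 of these ended at its last base. The introns held 2, 2 and 4 tags in order, from 0.430 to 4.15 per kb, and the cassette exons 0 each. Without the downstream exon, a choice made after seeing the data, C2C12 had 20.0 CPM and WT forelimb 27.3, so the higher C2C12 value rests on that exon. C2C12 tags were 26 to 30 nt and forelimb tags 19 to 38 nt long, the C2C12 tags carry no random barcode, and RNA levels in C2C12 were not analysed here. Their part in this difference was not tested.

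The Clta spans ranked differently among the spans of the listed events in C2C12 and in forelimb. The span of the 36-nt event had 13.6 C2C12 tags per kb, the highest of the 98 spans, whose median was 0.916. It is a short span of 2639 nt that contains the downstream exon. The span of the 54-nt event had 1.17 per kb and ranked 38th. In WT forelimb the 36-nt and 54-nt spans had 1.52 and 0.835 molecules per kb, ranking 13th and 19th, with a median of 0.290 over all spans and 28 spans without a molecule. Spans of 1 gene can overlap, as those of Clta do over both cassette exons, so the ranks are a description.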

How the data were processed

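Per the submitters' processing notes, mm9 was the build, TopHat 1.3.2 and Bowtie aligned the RNA-seq reads, and Novoalign the CLIP reads. The authors' deposited table gives estimated counts (tags) per isoform and junction, as 1 total per genotype, and these are not whole numbers. The table also holds an odds ratio, Fisher p-values with adjusted p-values and a score for the difference of inclusion, per the file headers. Of these deposited columns only the difference was used, which the junction tags gave within 0.0005 for 98 of 98 events. CLIP files list 1 tag per line, and the deposited score of each tag was not used. Forelimb tags carry 5 barcode letters, in 100% of tags ending in G. In C2C12 these letters overlapped between tags starting 1 nt apart in 64.2% of pairs, against 3.66% to 18.4% in forelimb, so they follow the tag's own position there. C2C12 lines with the same position and letters were counted once (677787 lines, 550124 kept).

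Libraries of 1 genotype that shared over 50% of the molecules of either one were counted as 1. CPM is tags per 1000000 tags of the library. Counts carry 95% exact Poisson intervals, shares exact Clopper-Pearson intervals, both on rounded tags, and ratios the interval of the matching share. Inclusion takes the rounded mean of 2 junctions as its count, so its interval is approximate. A total of 0 allows up to 3 tags. The replicates are labelled as biological. Intervals and tests used scipy 1.17.1 and numpy 2.4.6 in Python 3.11.15, tables pandas 2.3.3 and plots matplotlib 3.10.9. The permutation code was checked on small made-up values and the Poisson interval on simulated counts. The Clopper-Pearson interval was not checked in this way.

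Always named were Clta and its junctions, the 3 nearest events to each Clta event, genes whose listed events share a splice site and change in opposite directions, and listed members of the clathrin list. The members and lists were chosen with earlier results of these data known. Alternatives covered the junctions used, an added tag, collapse by position, tag midpoints, reads in place of tags, spans wider by 10000 nt, libraries as labelled and each library left out. No mm9 genome or annotation was used, so the sequences of the exons are not shown.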

Additional observations from a re-analysis of the deposited data

How the results depend on the processing

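The gain of the 54-nt exon was positive under all 3 alternatives that differ from the definition used (the mean of both junctions is that definition), at 69.6 points with the downstream junction alone and otherwise from 87.3 to 92.7 points. The change of the 36-nt exon reversed to 22.9 points with the upstream junction alone and otherwise ran from -69.8 to -67.1 points. Both junctions of that setting need the 54-nt exon, which left 0.899 WT tags. The WT value was 0 of 1 rounded tag (exact binomial interval 0 to 97.5%), so the sign of the change is undetermined in that setting. The difference of CLIP tags between the genotypes reversed to 1.43 CPM without WT replicate 3 and to 1.71 with each shared molecule kept in 1 library only. Leaving out 1 library gave values from -30.0 to 1.43 CPM. The exact permutation p ran from 0.5 to 1 over the alternatives with more than 1 library per genotype. None of them could give a p under 0.1, so these p-values do not show that the genotypes are alike. By reads in place of tags the difference was -26.2 reads per 1000000 reads (exact permutation p = 0.8). It rests on 1 molecule with 559 reads in WT replicate 2, where WT replicates 1 and 3 had 1 and 17 reads. With a replicate block over the 6 libraries as labelled, it was -15.1 CPM (exact sign-flip p = 0.75), as without the block (exact permutation p = 0.5). The labels tie replicate numbers to no litter or day, and the differences within a number were 16.4, -13.5 and -48.3 CPM. The excess of C2C12 over WT forelimb ran from 36.3 to 61.8 CPM in 7 alternatives, among them 36.3 to 53.7 with 1 WT library left out, and reversed to -7.32 CPM without the downstream exon. With 0 to 6 tags per forelimb library, depth limits every CLIP comparison at Clta.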
